A study of Mus musculus with 12 samples.

Results

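Germ cells of the testis replace several enzymes of sugar breakdown with isoforms made from separate genes, and these data follow 4 such exchanges in mouse germ cells isolated from the animal or grown in culture. The genes described are Gapdhs and Gapdh, Pgk2 and Pgk1, Ldhc with Ldha and Ldhb, and Pdha2 and Pdha1, in which the first of each set is the testis isoform. They were chosen by symbol, as every probe set annotated to 1 of these symbols alone. Of the 9 genes, 8 had such a probe set, 15 probe sets in all, and all 8 were among the 14197 genes tested. Gapdh had none, because its probe sets are either array controls (3) or shared with other symbols (3), so its level is given from the control probe sets and it entered no count.

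Glycolysis cuts glucose to pyruvate in the cytosol. Glyceraldehyde-3-phosphate dehydrogenase (Gapdh, Gapdhs) and phosphoglycerate kinase (Pgk1, Pgk2) carry out neighbouring steps, the second of which yields ATP. Pyruvate is then either reduced to lactate by lactate dehydrogenase (Ldha, Ldhb, Ldhc) or enters mitochondria and is oxidised by the pyruvate dehydrogenase complex, whose E1 alpha subunit is encoded by Pdha1 or Pdha2. Pgk1 and Pdha1 lie on the X chromosome, which is silenced in male meiosis, and Pgk2 and Pdha2 are autosomal copies without introns that arose from their messenger RNAs. Gapdhs is anchored to the fibrous sheath of the sperm tail, and mouse sperm that lack it or Ldhc swim poorly.

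Total RNA was labelled with biotin by a 3' in vitro transcription kit and measured on 12 Affymetrix arrays, 3 for each of 4 groups. Spermatid-like cells (SLC) were differentiated in vitro, to a time that the labels do not give. Round spermatids (RS), the haploid cells that follow meiosis, came from testes of male BDF1 mice at 3 weeks of age. Primordial germ cell-like cells (PGCLC) were taken at day 6 of differentiation in vitro, and primordial germ cells (PGC), the embryonic precursors of sperm, from the genital ridges of male BDF1 fetuses at E12.5. All cells were collected by FACS with a gate that the labels do not name, and neither the starting cell line of the cultured cells nor any pooling of animals is stated. The labels call the samples biological replicates; p-values measure the spread between these arrays.

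The arrays had medians of 73.2 to 107 intensity units. Pearson's r across genes was 0.984 to 0.987 between SLC arrays, 0.976 to 0.984 between RS arrays, 0.914 to 0.976 between PGCLC arrays and 0.986 to 0.988 between PGC arrays. PGCLC arrays were graded in their likeness to PGC. Replicate 2 was the most like them: it correlated with the PGC arrays at 0.973 to 0.974, against 0.884 to 0.885 for replicate 1 and 0.926 to 0.928 for replicate 3. The summed signal of 4 germ cell markers (Ddx4, Dazl, Pou5f1 and Dppa3) was 12400, 49200 and 32250 units on PGCLC replicates 1, 2 and 3, against 54260 to 58110 on PGC arrays. Counts of members and of pathway genes that involve PGCLC, and called changes of members, are therefore also given without replicate 2. This leaves out the PGCLC array with the highest germ cell marker sum, and replicate 1 lay at the other end. Changes of single pathway genes are given with all arrays only. The 6 spermatid markers (Prm1, Prm2, Tnp1, Tnp2, Acrv1 and Spaca1) summed to 102900 to 105500 on SLC arrays and 128600 to 139600 on RS arrays, and to 227.4 to 367.7 on PGCLC arrays and 315.1 to 400.3 on PGC arrays.

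Levels are the deposited linear intensities of a probe set. For changes, values under the 25th percentile of the table, 30.7 units, were raised to that floor and log2 was taken. A limma fit over all genes and all 12 arrays gave each change with its SE and an adjusted p, and a gene was called higher or lower where that p was under 0.05 and the groups differed 2-fold or more. A fold against a group with arrays at the floor is written as a lower bound where the ratio of mean signals is no smaller, and otherwise both are given without a bound. These are bulk samples, so fewer cells of a kind and less RNA per cell cannot be told apart, and with 3 arrays a group their number limits the precision. The brightness of different probe sets is not comparable, so within-array ratios of isoforms are read only for how they differ between groups.

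In the animal, the 4 testis isoforms and Ldha rose between the stages and Pgk1, Ldhb and Pdha1 fell. In the comparison of RS with PGC, 5 of 8 members were higher, where 31.5% of all genes tested were, and 3 were lower, where 37.2% of all genes were. All 8 were called, with arrays that did not overlap between the groups. The share of all genes without such overlap was not counted. In culture, the comparison of SLC with PGCLC called 4 members higher (29.4% of all genes) and 3 lower (26.9% of all genes), the same testis isoforms higher and the same 3 somatic ones lower, and it did not call Ldha. Without PGCLC replicate 2 the counts were again 4 and 3, with log2 changes of 8.14 for Pgk2, 6.61 for Ldhc, 7.19 for Pdha2, -2.13 for Ldhb and -1.82 for Pdha1. Between the matched stages, SLC against RS gave 3 members higher (23.5% of all genes) and 0 lower by limma (3.32% of all genes). At an unadjusted p under 0.05 there were 2 lower, and 5 in a fit of these 6 arrays alone. The first 2, Pgk2 and Pdha2, also had an adjusted p under 0.05 but changed less than 2-fold. PGCLC against PGC gave 1 member higher (10.3% of all genes) and 1 lower (1.6% of all genes).

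**Figure D1:**
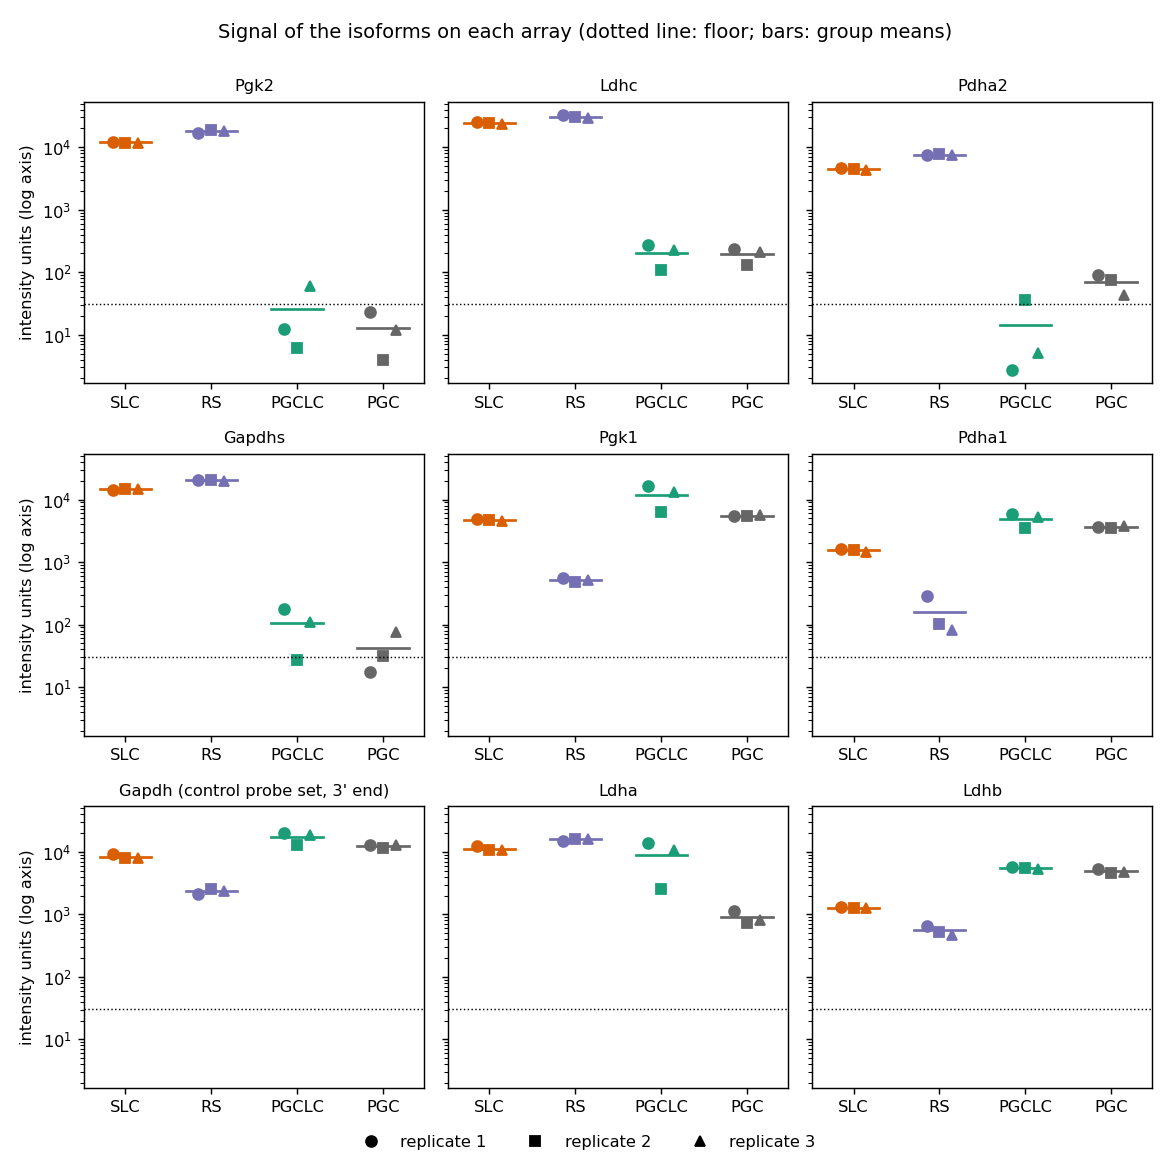
Signal of each isoform on each of the 12 arrays, in intensity units on a log axis, for SLC, RS, PGCLC and PGC. Points are arrays, short bars are group means (n = 3) and the dotted line is the floor of 30.7 units. The testis isoforms Gapdhs, Pgk2, Ldhc and Pdha2 are bright on all SLC and RS arrays and dim on all PGCLC and PGC arrays, whereas Pgk1, Pdha1, Ldhb and the Gapdh control are lowest in RS.

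The promoters of the testis isoforms are shown because these 4 genes moved together although they lie on 3 chromosomes, and those of Pgk1 and Ldha for contrast. Each window is the 250 bases before the most upstream start that the RefSeq promoter table used here holds for that gene (build GRCm38.p6), on the gene's strand. For Gapdhs, Ldha and Gapdh the annotated gene reaches further upstream, so their windows lie inside it. The windows are Gapdhs, chr7:30743682-30743931 (minus strand), Pgk2, chr17:40208610-40208859 (minus strand), Ldhc, chr7:46861013-46861262 (plus strand), Pdha2, chr3:141212356-141212605 (minus strand), Pgk1, chrX:106186850-106187099 (plus strand), and Ldha, chr7:46845554-46845803 (plus strand). Capitals mark TGACG on either strand, the core of the site for cyclic AMP-responsive factors, and TATAAA.
Gapdhs: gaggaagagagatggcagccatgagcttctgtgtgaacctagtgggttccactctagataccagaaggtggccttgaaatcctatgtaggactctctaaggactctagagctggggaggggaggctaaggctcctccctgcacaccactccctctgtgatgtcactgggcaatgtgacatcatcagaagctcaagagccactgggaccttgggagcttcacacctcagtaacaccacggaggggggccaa
Pgk2: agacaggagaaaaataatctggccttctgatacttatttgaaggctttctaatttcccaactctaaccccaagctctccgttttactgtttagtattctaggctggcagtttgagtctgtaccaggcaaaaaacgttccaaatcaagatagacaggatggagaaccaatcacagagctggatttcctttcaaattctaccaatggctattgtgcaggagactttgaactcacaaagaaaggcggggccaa
Ldhc: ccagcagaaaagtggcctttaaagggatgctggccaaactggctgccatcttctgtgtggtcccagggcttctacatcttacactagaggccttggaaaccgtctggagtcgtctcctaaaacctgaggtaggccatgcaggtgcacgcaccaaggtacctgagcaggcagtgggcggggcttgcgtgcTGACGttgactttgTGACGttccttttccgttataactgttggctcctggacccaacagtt
Pdha2: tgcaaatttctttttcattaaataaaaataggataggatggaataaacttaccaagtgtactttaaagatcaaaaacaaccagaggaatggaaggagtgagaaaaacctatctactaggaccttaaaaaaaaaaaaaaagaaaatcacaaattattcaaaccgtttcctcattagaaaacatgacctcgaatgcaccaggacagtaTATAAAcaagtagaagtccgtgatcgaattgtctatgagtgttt
Pgk1: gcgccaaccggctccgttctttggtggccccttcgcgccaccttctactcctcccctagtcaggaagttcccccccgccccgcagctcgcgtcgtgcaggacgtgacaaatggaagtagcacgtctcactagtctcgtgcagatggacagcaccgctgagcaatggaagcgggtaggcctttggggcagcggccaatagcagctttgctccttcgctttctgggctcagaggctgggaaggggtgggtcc
Ldha: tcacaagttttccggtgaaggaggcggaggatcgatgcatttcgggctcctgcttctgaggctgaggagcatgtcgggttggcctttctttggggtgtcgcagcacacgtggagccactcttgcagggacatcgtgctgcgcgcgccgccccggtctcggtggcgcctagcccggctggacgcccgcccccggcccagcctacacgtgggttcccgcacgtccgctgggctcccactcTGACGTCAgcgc

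In these windows CpG dinucleotides numbered 1 in Gapdhs, 3 in Pgk2, 8 in Ldhc and 4 in Pdha2. The somatic isoforms had 17 in Pgk1, 25 in Ldha, 14 in Ldhb, 8 in Gapdh and 15 in Pdha1. The median of 32851 promoters of the same length was 6, so Ldhc and Gapdh had the same number, just over it, and the other testis isoforms were under it. GC content was 54.8% in Gapdhs, 42.0% in Pgk2, 54.4% in Ldhc and 31.6% in Pdha2, and among the somatic isoforms 62.8% in Pgk1, 67.2% in Ldha, 56.4% in Ldhb, 55.6% in Gapdh and 61.6% in Pdha1, where the median of all promoters was 52.4%. Gapdhs, Ldhc and Ldha each have a further start downstream, whose windows held 0, 3 and 9 CpG. Other values here and below are for the most upstream starts. Which start these cells use was not tested.

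The windows were searched on both strands for TGACG, which 17.8% of all 32851 promoters hold, for GGGCGG, which 32.7% of them hold, for ACGTG, in 16.6% of them, for TATAAA, in 12.4% of them, and for CCAAT, in 33.8% of them. TGACG stood at 61 and 47 bases before the start of Ldhc, and in Ldha at 12 bases on the gene's strand and 9 bases on the other, where the 2 matches overlap in a palindrome. The Ldha window held 5 matches of ACGTG, some overlapping on opposite strands, and that of Pgk1 held 2. TATAAA stood at 44 bases before the start of Pdha2, and CCAAT at 86 and 52 bases before that of Pgk2, 58 bases before that of Pgk1 and 53 bases before that of Ldhb. GGGCGG was found in the Ldhc, Pgk1 and Ldha windows, and the Gapdhs window held none of these sets of letters. A match is a description of the sequence, not a binding site.

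Gapdhs, on chromosome 7 (chr7:30729779-30744791), was a bright gene of the late stage. Its signal was 14232, 14680.2 and 15028 units on SLC arrays and 20536, 20743 and 19904 units on RS arrays. It was 177, 26.8 and 109.7 units on PGCLC arrays and 17.5, 30.9 and 77.4 units on PGC arrays, of which 1 in each group lay under the floor. RS were highest and SLC next, without overlap, and PGCLC and PGC arrays overlapped. Gapdhs rose in RS against PGC by 8.93 on the log2 scale (SE 0.53, adjusted p = 9.46e-09, limma). This is 487-fold both by the fit and as a ratio of mean signals, with all PGC arrays under the median of the table, 92.0 units. The size depended on the treatment of such dim signals: it was 231-fold with log2(intensity + 50) and 662-fold without PGC replicate 3. It rose in SLC against PGCLC by 7.44 (SE 0.53, adjusted p = 8.77e-08, limma), or 174-fold by the fit and 140-fold as a ratio of mean signals. That change was 6.72, or 105-fold, without PGCLC replicate 2, whose signal was the lowest of its group, and 104-fold with log2(intensity + 50).

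Gapdh (chr6:125161852-125166467), the form of most tissues, was read from 3 control probe sets that lie towards the 3' end, the middle and the 5' end of its transcript. The 3' control had 9206, 7993 and 7887 units on SLC arrays and 2132, 2511 and 2365 units on RS arrays. It had 20071, 12917 and 18411 units on PGCLC arrays and 12683, 11668 and 12990.4 units on PGC arrays. RS were lowest and apart from the rest, SLC lay between RS and the early groups, and PGCLC overlapped PGC. The log2 ratio of Gapdhs to this control was higher by 11.34 (SE 0.42) in RS than in PGC and by 8.46 (SE 0.57) in SLC than in PGCLC, and lower by a change of -2.32 (SE 0.12) in SLC against RS. With the middle and 5' controls the SLC against RS change was -1.70 and -2.95. The log2 ratio of the 3' to the 5' Gapdh control was itself -0.555 to -0.433 on SLC arrays and -0.008 to 0.2 on RS arrays, whereas that of beta-actin was 0.327 to 0.6 on SLC arrays and 0.46 to 0.488 on RS arrays. The part of this shift in the Gapdh result was not tested.

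Pgk2 (chr17:40207018-40208609) was near the floor at the early stage and bright at the late one. Its signal was 12373, 11808 and 11892 units on SLC arrays and 17055, 18689.7 and 18369 units on RS arrays. On PGCLC arrays it was 12.3, 6.09 and 59.4 units, and on PGC arrays 23.1, 3.89 and 11.9 units. Only 1 of these 6 early arrays, PGCLC replicate 3, lay over the floor, and the late groups did not overlap with each other. Pgk2 rose at least 586-fold in RS against PGC (log2 change 9.20, SE 0.21, adjusted p = 1.86e-12, limma) and at least 314-fold in SLC against PGCLC (log2 change 8.29, SE 0.21, adjusted p = 6.95e-12, limma).

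Pgk1 (chrX:106187100-106203699), the form of somatic cells, ran the other way. Its probe set in the fit had 4934, 4736 and 4550.5 units on SLC arrays and 556, 484 and 512 units on RS arrays. It had 16279, 6218 and 13262 units on PGCLC arrays and 5514, 5535 and 5623 units on PGC arrays. The 4 groups did not overlap: PGCLC were highest, then PGC, then SLC, and RS lay far under the rest. Pgk1 fell by 3.43 in RS against PGC (SE 0.26, adjusted p = 1.03e-07, limma), or 10.8-fold, and fell by 1.22 in SLC against PGCLC (SE 0.26, adjusted p = 0.00111, limma), or 2.33-fold. The change in culture was -1.63 without PGCLC replicate 2, and without PGCLC replicate 1, the brightest, the change was -0.94, under 2-fold.

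The 3 Pgk1 probe sets, some of which may also bind related sequences, gave the same calls between stages. All 3 were called lower in RS against PGC (log2 changes of -3.43, -4.07 and -4.13) and lower in SLC against PGCLC (-1.22, -1.15 and -2.64). The log2 ratio of Pgk2 to Pgk1 was 1.34 ± 0.04 on SLC arrays, 5.13 ± 0.17 on RS arrays, -8.17 ± 0.76 on PGCLC arrays and -7.50 ± 0.01 on PGC arrays (SD, n = 3 each). It was thus higher by 12.62 (SE 0.10) in RS than in PGC and by 9.51 (SE 0.44) in SLC than in PGCLC, both of which depend on the floor. In SLC against RS it changed by -3.78 (SE 0.10), a 13.8-fold lower ratio with no overlap of arrays, and there no value lay near the floor.

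**Figure D2:**
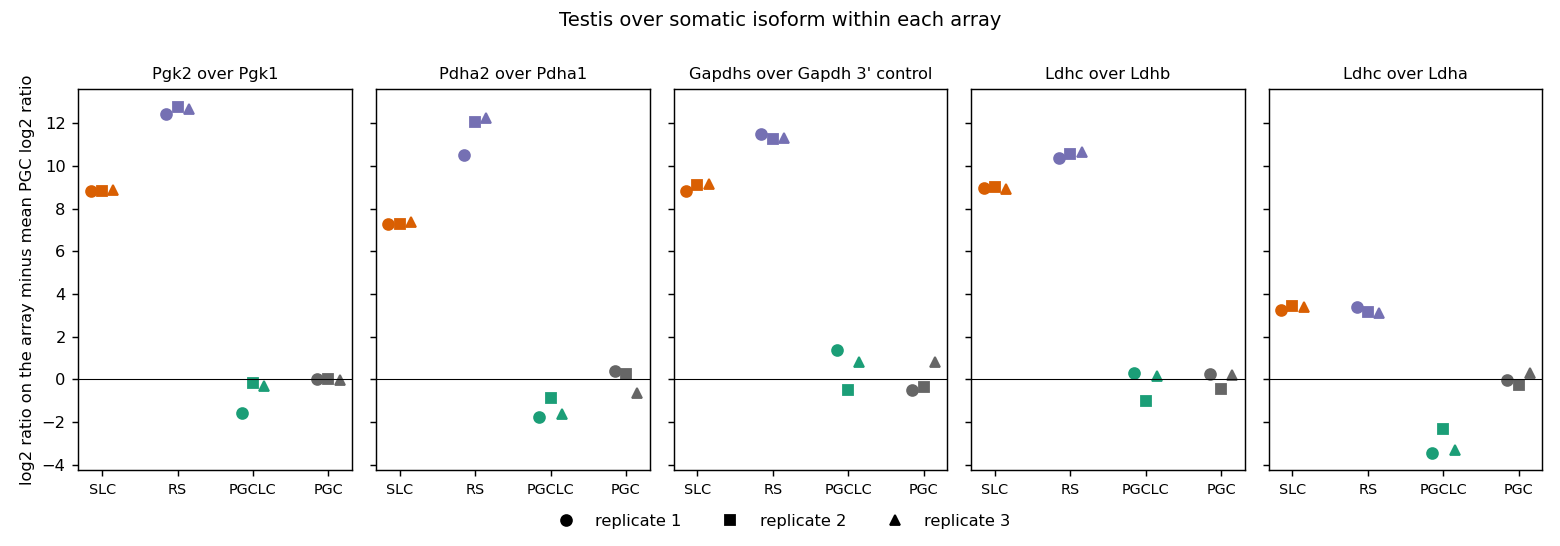
Log2 ratio of testis to somatic isoform within each array, set to 0 at the PGC mean of each pair, for SLC, RS, PGCLC and PGC (points are arrays, n = 3 a group). SLC arrays lie under RS arrays for Pgk2 over Pgk1, Pdha2 over Pdha1, Gapdhs over the Gapdh control and Ldhc over Ldhb, and among them for Ldhc over Ldha.

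The 24 changes of within-array ratios (6 pairs, with Ldha over Ldhb added, in 4 comparisons) were tested by a two-sided exact permutation test of 3 against 3 arrays, whose smallest p is 0.1. It gave that p wherever arrays did not overlap, with a Benjamini-Hochberg adjusted value of 0.114. No ratio can therefore pass 0.05, and sizes are given with their SE.

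Ldhc (chr7:46861263-46878147), which encodes the lactate dehydrogenase subunit of male germ cells, lies next to Ldha, with 5635 bases between them. Its signal was 25034, 24327 and 23238 units on SLC arrays and 33324, 30373 and 28997 units on RS arrays. It was 271, 107 and 227 units on PGCLC arrays and 238, 129.6 and 212 units on PGC arrays, all over the floor. The order was RS, then SLC, without overlap, and then PGCLC and PGC, which overlapped. Ldhc rose in RS against PGC by 7.37 (SE 0.30, adjusted p = 3.18e-10, limma), or 165-fold, and in SLC against PGCLC by 7.01 (SE 0.30, adjusted p = 8.58e-10, limma), or 129-fold. Its other probe set was called the same way, with log2 changes of 7.84 and 7.20.

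Ldha (chr7:46842274-46855627), the subunit that prevails in muscle and in many glycolytic tissues, was the one somatic isoform in the fit that was higher in RS than in PGC. Ldha was measured by 1 probe set, with no other to compare. It had 12475, 10624 and 10589 units on SLC arrays and 15175, 16165 and 16126 units on RS arrays. It had 13842, 2530.2 and 10619 units on PGCLC arrays and 1147, 741 and 817 units on PGC arrays. PGC were apart from all other groups, and PGCLC spanned a wide range in which SLC lay. Ldha rose in RS against PGC by 4.16 (SE 0.47, adjusted p = 4.55e-06, limma), or 17.9-fold. It also rose in PGCLC against PGC by 3.02 (SE 0.47, adjusted p = 0.00207, limma), or 8.12-fold. In SLC against PGCLC its change was 0.64 (SE 0.47, 95% confidence interval -0.40 to 1.67, adjusted p = 0.237, limma), and it was not called. This value hangs on single PGCLC arrays, being -0.11 without replicate 2 and, without replicate 1, 1.11 and called (adjusted p = 0.0347, limma).

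Ldhb (chr6:142490249-142507957), the subunit that prevails in heart, fell. Its probe set in the fit had 1295, 1249 and 1259 units on SLC arrays, 656, 528 and 477 units on RS arrays, 5808, 5552 and 5272 units on PGCLC arrays and 5272, 4581 and 4801 units on PGC arrays. The early groups lay over the late ones, SLC over RS, and the PGCLC arrays just over the PGC arrays, by a change of 0.18 (SE 0.11, adjusted p = 0.23, limma) that was not called. Ldhb fell by 3.15 in RS against PGC (SE 0.11, adjusted p = 8.21e-11, limma), or 8.89-fold, and fell by 2.13 in SLC against PGCLC (SE 0.11, adjusted p = 5.31e-09, limma), or 4.37-fold. Its 4 probe sets were all called lower in both comparisons, and in RS against PGC the change lay between -5.61 and -3.15.

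Within arrays the lactate dehydrogenase genes moved in different ways. The log2 ratio of Ldhc to Ldhb was higher by 10.52 (SE 0.23) in RS than in PGC and by 9.14 (SE 0.41) in SLC than in PGCLC. The ratio of Ldhc to Ldha was higher by 3.21 (SE 0.19) and 6.37 (SE 0.36) in these comparisons. The ratio of Ldha to Ldhb was higher by 7.31 (SE 0.21) and 2.77 (SE 0.76). In SLC against RS the ratio of Ldhc to Ldha changed by 0.15 (SE 0.10) with overlapping arrays (exact permutation p = 0.3, n = 3 a group, adjusted value 0.327), whereas those of Ldhc and of Ldha to Ldhb changed by -1.56 (SE 0.08) and -1.71 (SE 0.18) without overlap.

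Pdha2 (chr3:141210004-141212355) had 4664, 4448 and 4359 units on SLC arrays and 7567, 7807 and 7394 units on RS arrays. It had 2.69, 35.5 and 5.16 units on PGCLC arrays and 88.8, 75.7 and 43.3 units on PGC arrays. The 4 groups did not overlap, and 2 PGCLC arrays lay under the floor. Pdha2 rose in RS against PGC by 6.84 (SE 0.21, adjusted p = 3.09e-11, limma), or 114.5-fold, and at least 139-fold in SLC against PGCLC (log2 change 7.12, SE 0.21, adjusted p = 3.59e-11, limma).

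Pdha1 (chrX:160122219-160138430) had 1643, 1585 and 1462 units on SLC arrays and 288, 100.7 and 83.3 units on RS arrays. It had 5779, 3560 and 5232 units on PGCLC arrays and 3690.0, 3525 and 3727 units on PGC arrays. The RS arrays were lowest, with replicate 1 over the others, the SLC arrays came next, and PGCLC and PGC overlapped. Pdha1 fell by 4.76 in RS against PGC (SE 0.36, adjusted p = 1.07e-07, limma), which is 27.2-fold by the fit and 23.2-fold as a ratio of mean signals, and fell by 1.61 in SLC against PGCLC (SE 0.36, adjusted p = 0.00167, limma), or 3.05-fold. Its other probe set was called lower in both, with log2 changes of -5.48 and -2.29. The log2 ratio of Pdha2 to Pdha1 was higher by 11.60 (SE 0.64) in RS than in PGC and by 8.73 (SE 0.28) in SLC than in PGCLC. It changed by -4.30 (SE 0.56) in SLC against RS, a 19.7-fold lower ratio without overlap of arrays.

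The in vitro late cells differed from their in vivo counterpart mainly in the somatic isoforms. Pgk1 averaged 4740.2 ± 192 units in SLC and 517 ± 36.4 units in RS, and was higher in SLC by 3.20 on the log2 scale (SE 0.26, adjusted p = 8.49e-07, limma), or 9.17-fold. Pdha1 averaged 1563 ± 92.8 units in SLC and 157 ± 114 units in RS, and was higher by 3.54 (SE 0.36, adjusted p = 6.52e-06, limma), which is 11.6-fold by the fit and 9.93-fold as a ratio of means. Ldhb averaged 1268 ± 24.2 units in SLC and 553 ± 92.2 units in RS, and was higher by 1.21 (SE 0.11, adjusted p = 2.45e-06, limma), or 2.31-fold. All 3 Pgk1, both Pdha1 and all 4 Ldhb probe sets were called higher, the Ldhb ones by 1.21 to 2.97.

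By the probe sets in the fit, Pgk1, Pdha1 and Ldhb were lower on every SLC array than on every PGCLC and PGC array. The SLC arrays overlapped with the PGC arrays in the 2 other Pgk1 probe sets, with 4359 to 4502 units on SLC arrays and 4371 to 4848 units on PGC arrays in 1 of them, and 1005 to 1689 units on SLC arrays and 1449 to 3158 units on PGC arrays in the other. The 3' Gapdh control, outside the fit, averaged 8362 ± 733 units in SLC and 2336 ± 191 units in RS, without overlap (SD, n = 3 each).

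The testis isoforms were lower on every SLC array than on every RS array, by changes that were not called. Pgk2 averaged 12025 ± 305 units in SLC and 18038 ± 866 units in RS, a log2 change of -0.58 (95% confidence interval -1.04 to -0.13, adjusted p = 0.0292, limma), under 2-fold. Pdha2 averaged 4490.5 ± 157 units in SLC and 7589 ± 207 units in RS, a change of -0.76 (-1.23 to -0.29, adjusted p = 0.0095, limma), also under 2-fold. The changes of Ldhc, -0.35 (-1.01 to 0.31, adjusted p = 0.322, limma), Gapdhs, -0.48 (-1.63 to 0.68, adjusted p = 0.442, limma), and Ldha, -0.50 (-1.53 to 0.54, adjusted p = 0.372, limma), had intervals that reach past a 2-fold fall and over 0. In a fit of the 6 SLC and RS arrays alone, which leaves out the spread of the PGCLC and PGC arrays, these 3 had adjusted p-values of 0.00156, 3.67e-05 and 0.000677 (limma), with the same sizes under 2-fold. The median change of all genes was -0.15. Of 13630 autosomal genes, 31.4% changed by -1 to -0.5 and 20.4% by -0.5 to 0, so falls of this size were common. The share of all genes without overlap of SLC and RS arrays was not counted.

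**Figure D3:**
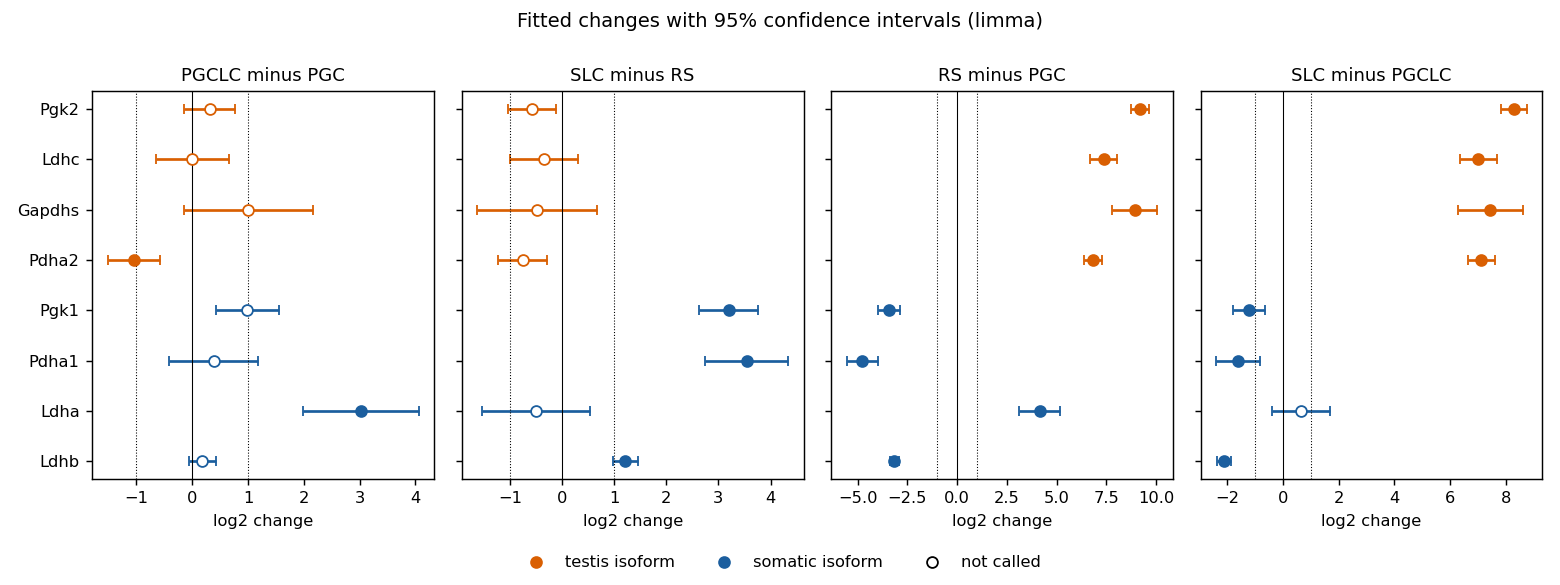
Fitted log2 changes of the 8 isoforms with 95% confidence intervals in 4 comparisons (limma, n = 3 arrays a group). Filled points were called, open points were not, and dotted lines mark 2-fold. In SLC minus RS the called points are Pgk1, Pdha1 and Ldhb, all to the right.

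The scaling of the arrays bears on this comparison. Over all genes, SLC against RS gave 3335 higher and 472 lower, whereas centring each array on its median gave 2910 higher and 2505 lower, and quantile normalization 2716 higher and 2289 lower. Under these settings Ldhb, by its probe set in the fit, changed by 0.95 and 0.84, no longer 2-fold, and centring called Pdha2 lower (-1.02). That probe set had the smallest Ldhb change. The others changed by 1.95, 2.95 and 2.97 as deposited and were not fitted under these settings.

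In SLC against RS, where 23.5% of all genes were called higher, many markers of other testis cells were higher, as Pgk1, Pdha1 and Ldhb were. The 8 peritubular and fibroblast markers, among them collagen and smooth muscle genes, were all called higher in SLC than in RS, and summed to 82160 to 84260 units on SLC arrays, 2309 to 2575 on RS arrays, 14740 to 15890 on PGCLC arrays and 5647 to 6405 on PGC arrays. Of 5 Leydig cell markers measured, 4 were higher, with sums of 7689 to 8090 on SLC arrays and 253.6 to 360.0 on RS arrays, where Cyp11a1, which encodes the enzyme that starts steroid synthesis, was under the floor on all arrays. Of 6 Sertoli cell markers, 4 were higher (3980 to 3985 on SLC arrays and 813.8 to 1159 on RS arrays), and of 4 macrophage markers 1 was (903.5 to 1091 on SLC arrays and 584.1 to 686.4 on RS arrays). Of 5 endothelium and blood markers 1 was higher (453.0 to 556.9 on SLC arrays and 378.8 to 538.4 on RS arrays). In SLC against PGCLC, where Pgk1, Pdha1 and Ldhb fell, 7 peritubular and fibroblast markers were called higher and 0 lower. Of Leydig markers 3 were higher and 1 lower, and of Sertoli markers 0 and 1. For macrophage markers these counts were 1 and 2, and for endothelium and blood markers 0 and 3. Of all genes 29.4% were higher and 26.9% lower there. The part of other cells in the higher Pgk1, Pdha1 and Ldhb signals of SLC was not tested.

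Pgk1 and Pdha1 share the X chromosome, and many genes on it moved as they did. Of 472 X-linked genes tested, 266 (56.4%) were lower in RS than in PGC, with a median log2 change of -1.37, against 36.6% of 13630 autosomal genes and a median of -0.20. In SLC against RS, 204 X-linked genes (43.2%) were higher, with a median of 0.66, against 22.9% of autosomal genes and a median of -0.16. Both calls together held for 172 of the 472 X-linked genes. The share of autosomal genes with both calls was not counted, so this number has no background to be read against. Pdha1 stood towards the end of this range, since 23 X-linked genes fell further in RS against PGC and 42 were further up in SLC against RS, and for Pgk1 these counts were 96 and 63. Ldhb, on chromosome 6, had the same pair of calls. These counts describe X-linked genes as measured, without a test of the chromosome.

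**Figure D4:**
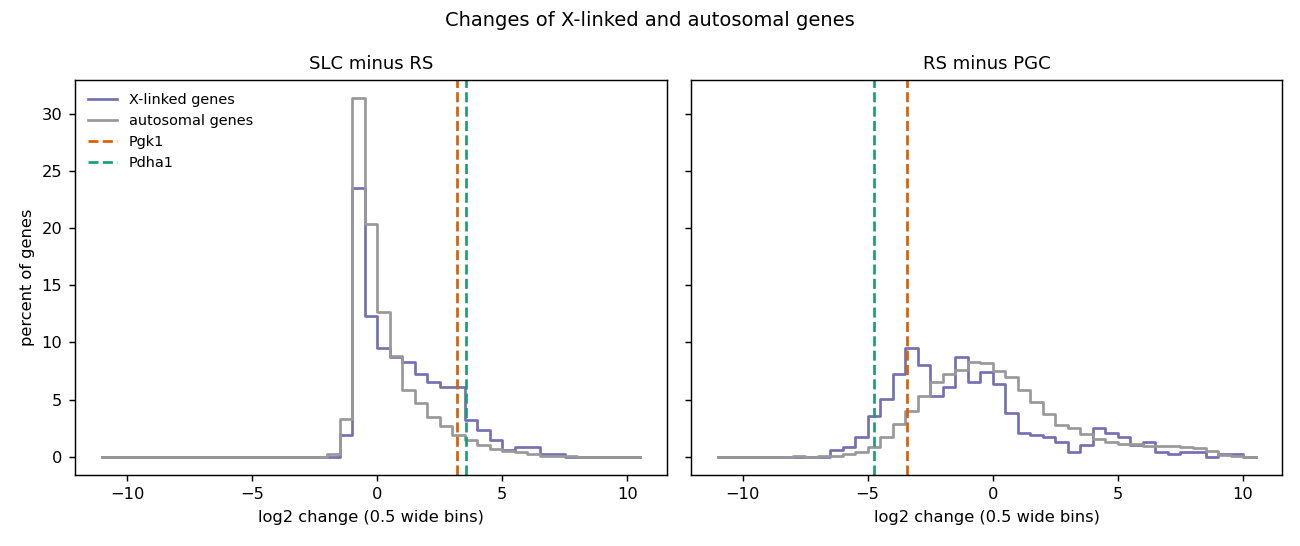
Distribution of log2 changes of 472 X-linked and 13630 autosomal genes in SLC minus RS and RS minus PGC (percent of genes in bins of 0.5). Dashed lines mark Pgk1 and Pdha1, which lie to the right in SLC minus RS and to the left in RS minus PGC.

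At the early stage, Ldha was the member that stood higher in culture. It averaged 8997 ± 5828 units in PGCLC and 902 ± 216 units in PGC, and every PGCLC array was over every PGC array. Without replicate 2, its change was 3.78 (adjusted p = 2.4e-08, limma) in place of 3.02. Pdha2 was called lower, at 14.4 ± 18.3 units in PGCLC and 69.3 ± 23.4 units in PGC (change -1.04, SE 0.21, adjusted p = 0.00666, limma), with all 6 arrays under the median of the table, 92.0 units. With 2 PGCLC arrays under the floor, this is at least 2.05-fold by the fit at this floor, and 4.79-fold as a ratio of mean signals. With log2(intensity + 50) the fall of Pdha2 was 1.87-fold (log2 change -0.90) and was not called. A fit of the 6 PGCLC and PGC arrays alone called neither gene nor any other member (adjusted p = 0.0732 for Ldha and 0.0919 for Pdha2, limma), and Pdha2 was not called without PGC replicate 1 (-0.83) or 2 (-0.94). Without PGCLC replicate 2 the change of Pdha2 was -1.11.

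Pgk1 averaged 11920 ± 5163 units in PGCLC and 5557 ± 57.7 units in PGC, and its change of 0.99 (SE 0.26, adjusted p = 0.0174, limma) was just under 2-fold. Its other probe sets were called higher, by 1.08 (SE 0.19, adjusted p = 0.0036, limma) and 1.80 (SE 0.46, adjusted p = 0.0171, limma), and without replicate 2 the change was 1.40 (adjusted p = 4.57e-07, limma). Gapdhs, at 105 ± 75.2 units in PGCLC and 41.9 ± 31.4 units in PGC, changed by 1.01 (SE 0.53, adjusted p = 0.167, limma) and by 1.73 without replicate 2 (adjusted p = 0.0011, limma), which raised the members called to 4. Ldhc, Ldhb, Pgk2 and Pdha1 had changes of 0.01, 0.18, 0.32 and 0.38 and were not called, nor without replicate 2 (0.41, 0.18, 0.48 and 0.59). On PGCLC replicate 2 the signals of Ldha, Pgk1, Pdha1 and the Gapdh control were the lowest of the group and the closest to PGC, the same array that had the highest germ cell marker sum.

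Markers of other cells differed here too. Of 4 macrophage markers, 3 were called higher in PGCLC than in PGC, where 10.3% of all genes were. Their sums were 1931, 539 and 1391 units on PGCLC replicates 1, 2 and 3, the same order as Ldha, and 234.7 to 253 units on PGC arrays. Of 8 peritubular and fibroblast markers, 4 were called higher. Their sums were 15100, 15890 and 14740 units on PGCLC replicates 1, 2 and 3, another order than Ldha, and 5647 to 6405 units on PGC arrays. The sums of Sertoli (10310, 12330 and 10840), Leydig (202.8, 2455 and 1081) and endothelium and blood markers (2425, 17020 and 9516) ran in the reverse order. Of these lists 1, 0 and 0 markers were called higher, and 0, 0 and 1 lower. The part of any of these cells in the Ldha result was not tested.

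Of the within-array ratios at the early stage, those with Pgk2, Pdha2 or Gapdhs include arrays under the floor. Ldhc was over the table median of 92.0 units on all PGCLC and PGC arrays. Its ratio to Ldha changed through Ldha (3.02), since Ldhc changed by 0.01. Ldha over Ldhb holds no testis isoform. In PGCLC against PGC the log2 ratio changed by -3.02 (SE 0.39) for Ldhc over Ldha, 2.84 (SE 0.77) for Ldha over Ldhb, -1.42 (SE 0.43) for Pdha2 over Pdha1 and -0.67 (SE 0.44) for Pgk2 over Pgk1, without overlap of arrays. It changed by -0.18 (SE 0.46) for Ldhc over Ldhb and 0.57 (SE 0.70) for Gapdhs over the 3' Gapdh control, where arrays overlapped (exact permutation p = 0.8 and 0.6, n = 3 a group). Without PGCLC replicate 2 the changes were -3.37 for Ldhc over Ldha, 3.59 for Ldha over Ldhb, -1.70 for Pdha2 over Pdha1, -0.93 for Pgk2 over Pgk1, 0.23 for Ldhc over Ldhb and 1.11 for Gapdhs over the control. The SLC against PGCLC changes were then 9.77 for Pgk2 over Pgk1, 9.01 for Pdha2 over Pdha1, 7.92 for Gapdhs over the control, 8.73 for Ldhc over Ldhb, 6.72 for Ldhc over Ldha and 2.01 for Ldha over Ldhb.

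Setting the step in culture against the step in the animal, 4 of 8 members differed between them. The SLC minus PGCLC change exceeded the RS minus PGC change by 2.21 for Pgk1 (SE 0.37, adjusted p = 0.000576, limma), 3.16 for Pdha1 (SE 0.51, adjusted p = 0.000487, limma) and 1.02 for Ldhb (SE 0.16, adjusted p = 0.000309, limma), each of which fell less in culture. It was smaller for Ldha by a difference of -3.52 (SE 0.67, adjusted p = 0.00134, limma), a gene already high in PGCLC. Without PGCLC replicate 2 these differences were 1.79, 2.95, 1.03 and -4.27 for Pgk1, Pdha1, Ldhb and Ldha. These are 3 members higher and 1 lower, where 20.7% and 11.1% of all genes were (2936 and 1571 genes; 2348 and 1969 with quantile normalization). The differences of Pgk2 (-0.90, adjusted p = 0.0262, limma), Gapdhs (-1.49, adjusted p = 0.12, limma), Ldhc (-0.36, adjusted p = 0.511, limma) and Pdha2 (0.28, adjusted p = 0.468, limma) were not called. Without PGCLC replicate 2, those of Pgk2 (-1.06) and Gapdhs (-2.21) were, and that of Pgk2 also without PGCLC replicate 1 (-1.06). Those of Ldhc (-0.76, adjusted p = 0.0288, limma) and Pdha2 (0.35) were not called without replicate 2. Both Pgk2 values are equal because PGCLC replicates 1 and 2 lay under the floor, as did all PGC arrays. At the early stage they therefore rest on PGCLC replicate 3, a dim signal of 59.4 units. The difference of Ldhb was just under 2-fold, 0.92 to 0.997, without PGC replicate 1, PGCLC replicate 3 or RS replicate 2 or 3. The other 3 Ldhb probe sets gave larger differences, 1.78, 2.55 and 2.55, all called, and their mean with the first 1.98. Of the other Pgk1 probe sets, 1 gave 2.92 and was called, and 1 gave 1.495 and was not (adjusted p = 0.0855, limma).

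The other genes of glycolysis moved in both directions between the stages. Of 30 listed, 23 were tested. In RS against PGC, 13 were higher and 4 lower (31.5% and 37.2% of all genes), with a median log2 change of 1.69 against -0.22 over all genes. The largest fitted rises were those of Ldhal6b, a further lactate dehydrogenase gene (8.93, at least 489-fold), Aldoart2, a retrogene of aldolase (8.27, at least 310-fold), and Pgam2, the muscle form of phosphoglycerate mutase (7.58, 191-fold). Their order is not settled, since PGC arrays lay at the floor for the first pair and also for Aldoart1, a further aldolase gene named after its values were seen, which rose at least 163.5-fold. Pgam1, the form of most tissues, fell by 4.36, hexokinase Hk2 fell by 3.17 and pyruvate kinase Pkm fell by 1.41. In SLC against PGCLC, 11 were higher and 3 lower (29.4% and 26.9% of all genes), with a median of 0.38 against -0.07 over all genes. Among the fitted rises were Pgam2 (8.23), Ldhal6b (7.34) and Aldoart2 (7.10), whose order against Aldoart1 (6.86) again depends on the floor. Aldoc (-2.02), Pgam1 (-1.33) and Pkm (-1.06) fell. Without PGCLC replicate 2 these counts were 10 and 4.

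In SLC against RS, 3 glycolysis genes were called higher and 0 lower by limma (23.5% and 3.32% of all genes), with a median of -0.33 against -0.15 over all genes. At an unadjusted p under 0.05 these counts were 5 and 8. The falls of Hk1, Pfkm, Aldoart1, Aldoart2, Bpgm, Eno3 and Pfkfb3 and the rises of Pfkl and Pkm had an adjusted p under 0.05 but were under 2-fold. Hk2 averaged 2204 ± 120 units in SLC and 77.2 ± 7.07 units in RS (change 4.84, SE 0.35, adjusted p = 3.16e-07, limma, 28.6-fold). Pgam1 averaged 3649 ± 107 units in SLC and 338 ± 55.3 units in RS (change 3.45, SE 0.16, adjusted p = 7.85e-09, limma, 10.9-fold). The third was Eno2, the enolase of neurons, with a change of 2.76. Hk2 and Pgam1 had, like Pgk1 and Pdha1, fallen in RS against PGC. With each array centred on its median 3 genes were also called lower, and with quantile normalization 2.

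In PGCLC against PGC, 6 glycolysis genes were higher and 1 lower (10.3% and 1.6% of all genes; median 0.57, against 0.006 over all genes). Hk2 averaged 3215 ± 1761 units in PGCLC and 693.7 ± 15.2 units in PGC (change 2.02, adjusted p = 0.00336, limma), and triose phosphate isomerase Tpi1 8085 ± 4687 units in PGCLC and 1759 ± 25.1 units in PGC (change 1.98, adjusted p = 0.00452, limma). Aldoc was higher by 1.38, and Eno4, an enolase of sperm, was lower (-1.57). Hk2 was at 4775, 1306 and 3565 units and Tpi1 at 12240, 3006 and 9007 units on PGCLC replicates 1, 2 and 3, the same order as Ldha. Without replicate 2 the counts were 8 higher and 1 lower, without PGCLC replicate 1 they were 3 and 0, without PGC replicate 3 also 3 and 0, and without PGC replicate 1 the fall was not called. The limma fit of the 6 arrays alone called 0 of the list, with 7 at an unadjusted p under 0.05.

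Among 11 tested genes of 12 that govern pyruvate entry into mitochondria, 2 were higher and 2 lower in RS against PGC (31.5% and 37.2% of all genes), with a median of -0.12 against -0.22 over all genes. The kinases that switch off pyruvate dehydrogenase moved in opposite directions there: Pdk2 rose by 5.20 (36.8-fold), Pdk1 fell by 5.33 (40.3-fold) and Pdk4 fell by 2.40. Pdhx, the E3-binding protein of the complex, rose by 1.42. In SLC against PGCLC these 4 genes were called the same way, Pdk2 by 3.21, Pdhx by 1.02, Pdk1 by -3.58 and Pdk4 by -1.28, with a median of -0.29 against -0.07 over all genes. The counts of 2 higher and 2 lower (29.4% and 26.9% of all genes) became 4 and 3 without PGCLC replicate 2. Without SLC replicate 3, 1 was higher. Between SLC and RS, Pdk1 (2.31), Pdk4 (1.71, at least 3.27-fold) and the pyruvate carrier gene Mpc1 (1.13) were higher and Pdk2 was lower (-1.49), 3 and 1 where 23.5% and 3.32% of all genes were, with a median of -0.26 against -0.15. In PGCLC against PGC 0 of the 11 were called by limma (10.3% higher and 1.6% lower over all genes), with a median of -0.20 against 0.006. At an unadjusted p under 0.05 there were 8. Of these, Pdhb, Pdhx, Dlat, Pdk1 and Pdk3 also had an adjusted p under 0.05 and were not called because their changes were under 2-fold. Without replicate 2 of PGCLC 1 was called higher and 2 were called lower. Pdk1 averaged 315 ± 11.5 units in SLC, 64.1 ± 10.3 units in RS, 3785 ± 375 units in PGCLC and 2570 ± 262 units in PGC. Pdk2 averaged 662 ± 62.9 units in SLC, 1848 ± 29.0 units in RS, 75.4 ± 30.1 units in PGCLC and 50.9 ± 10.3 units in PGC.

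**Figure D5:**
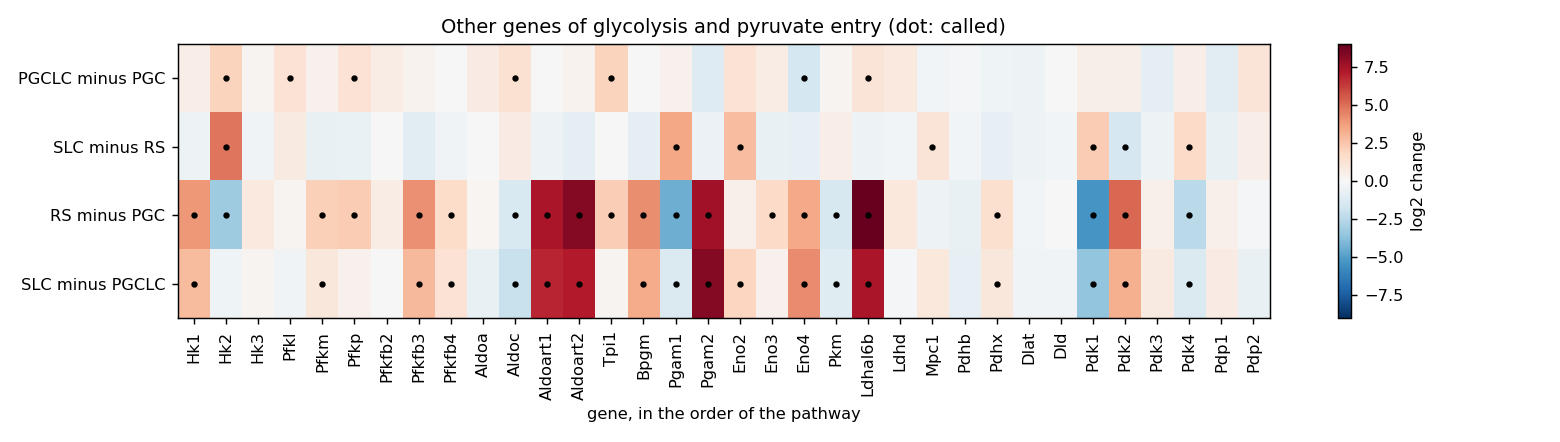
Log2 changes (colour) of the other tested genes of glycolysis and pyruvate entry in 4 comparisons, with a dot where a gene was called by limma. In RS minus PGC and SLC minus PGCLC Aldoart2, Pgam2 and Ldhal6b are deep red, and in SLC minus RS Hk2, Pgam1 and Eno2 are red.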

How the data were processed

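Mouse germ cell RNA was measured on 12 Affymetrix 3' expression arrays, and groups were taken from the sample titles. The values that the authors deposited are linear intensities, 1 per probe set and array, made with MAS5 per the submitters' processing notes, without a version. Each deposited array had a 2% trimmed mean of 500 units, so arrays had been scaled to a common level, and neither log nor quantile normalization had been applied. Detection calls were not used here.

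Of 45101 probe sets, 64 controls, 932 with several symbols and 9160 with none were left out, and 34741 of 34945 symbols were checked by Entrez identifier, with 0 changed. Values were floored at the 25th percentile (30.7 units) before log2. Probe sets over the table median (92.0 units) on at least 3 arrays were kept (24949), and each gene was represented by that with the highest mean log2 value, leaving 14197 genes, of which 6293 had several. Limma 3.58.1 in R 4.3.3 (lmFit, and eBayes with an intensity trend) was fitted to 4 group means, so the spread of the PGCLC arrays enters every SE. Benjamini-Hochberg adjustment of p-values ran over the whole set of genes. Contrasts compared culture with animal at each stage, late with early in each setting, and the culture step with the animal step. Differences of log2 ratios were tested by exact permutation (scipy 1.17.1, Python 3.11.15). The fit was also run on simulated data, with independent normal noise, an equal spread in all groups and no floor. That run does not cover dim signals or the wider spread of the PGCLC arrays, and no result here rests on it.

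The members and lists were chosen with earlier results of these data known. Besides the members, the genes named are the 3 largest rises and 3 largest falls called in each pathway list and comparison, and the 3 genes nearest in pattern to each testis isoform. The Gapdh control probe sets stand in for Gapdh, as chosen after seeing the data. Alternatives were another offset, floor and filter, quantile normalization, median centring, the mean of a gene's probe sets, each probe set on its own, 6 arrays alone, no intensity trend, array weights, a replicate block and leaving out each array. Promoter sequences come from RefSeq (GRCm38.p6), found by symbol for all 9 genes.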

Additional observations from a re-analysis of the deposited data

Results flagged for a closer look

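For 4 members, the limma test found that the step in culture (SLC minus PGCLC) differed from the step in the animal (RS minus PGC). The difference in log2 change was 2.21 for Pgk1, 3.16 for Pdha1 and 1.02 for Ldhb, whose falls were smaller in culture, and -3.52 for Ldha. For Ldha the step in the animal was 4.16 and that in culture 0.64, and its PGCLC arrays spread from 2530.2 to 13842 units.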

How the results depend on the processing

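The count of members called kept within 1.5 times of the reported one under every alternative in RS against PGC (8) and SLC against PGCLC (7). In SLC against RS (3) it was 2 with quantile normalization and, with median centring, 2 higher and 1 lower, and in the difference of steps (4) it ran from 3 to 6. In PGCLC against PGC the count was 2, and it was 1 with log2(intensity + 50), 0 with the 6 arrays alone (3 at an unadjusted p under 0.05), 4 with array weights, and 1 to 4 when each array was left out in turn (1 without PGC replicate 1 or 2, 4 without PGCLC replicate 2). With a replicate block the counts of members were 2, 3, 8, 7 and 4 in the order PGCLC against PGC, SLC against RS, RS against PGC, SLC against PGCLC and the difference of steps, as reported. The replicate numbers did not pair arrays: same-numbered arrays deviated with r of -0.017 to 0.133 over 18 pairs and others with -0.106 to 0.052 over 36. The change of the Ldhc to Ldhb ratio in PGCLC against PGC (-0.18) turned sign with another probe set pair (0.0565) and when arrays were left out (-0.41 to 0.23, the highest without PGCLC replicate 2). The cause was not tested. Of 952 alternative values of member changes, 925 kept their side of the threshold. Many of them could not move in size, so this share is not a measure of robustness. Leaving out an array of a group outside the comparison, for example, alters only the p-value. Ldha in PGCLC against PGC stayed at 3.02 without RS replicate 1 and with no intensity trend. Pgk1 in PGCLC against PGC was called with the mean of its probe sets (1.29). The difference of steps for Ldhb was no longer called with log2(intensity + 50) (0.96), with quantile normalization (0.55) or without PGC replicate 1 (0.97), PGCLC replicate 3 (0.99), RS replicate 2 (0.997) or 3 (0.92). Ldha in SLC against PGCLC was called without PGCLC replicate 1 (1.11).

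The reported counts of all genes were 1458 higher and 227 lower in PGCLC against PGC. The lower count there was 375 with quantile normalization, 483 with array weights, 97, 113 and 112 without PGC replicate 1, 2 and 3, and 58, 757 and 88 without PGCLC replicate 1, 2 and 3, where the higher count was 958 in the last. Median centring gave 967 higher and 896 lower, and the 6 arrays alone 168 and 7. The lower count in SLC against RS, 472, was 186 with log2(intensity + 50). Each probe set on its own, with more features tested, gave 2363 and 342 in PGCLC against PGC, 5997 and 989 in SLC against RS, 10302 lower in RS against PGC, 7852 lower in SLC against PGCLC and 5073 and 2447 in the difference of steps. Median centring moved the median change of all genes from -0.15 to -0.41 in SLC against RS and to -0.30 in PGCLC against PGC, and quantile normalization to -0.34 in the first. Signals near the floor limit folds of Pgk2, Gapdhs and Pdha2 against the early groups: Pgk2 in RS against PGC changed by 8.18 with log2(intensity + 50) and 10.43 with a floor at the 10th percentile.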

Other observations

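The genes whose levels followed each testis isoform most closely over the 12 arrays were found by the root mean square difference of mean-centred log2 values. For Pgk2 they were Hspb9, a small heat shock protein gene (0.128), 1700029H14Rik (0.202) and Nt5c1b, which encodes a cytosolic nucleotidase (0.253). Hspb9 averaged 13030 ± 437 units in SLC, 18340 ± 572 units in RS, 22.7 ± 22.5 units in PGCLC and 23.0 ± 5.63 units in PGC. For Ldhc they were Septin12 (0.274), Izumo2 (0.29) and Fank1 (0.32), for Gapdhs Pdcl2 (0.341), Catsperz (0.371) and Rbakdn (0.404), and for Pdha2 Ak8, an adenylate kinase gene (0.265), Apobec4 (0.288) and C2cd6 (0.311). The arrays fall into an early and a late cluster, and many early values of these genes lay at the floor, so likeness rests mainly on the size of that step and on the spread within the late groups.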
